A study of Arabidopsis thaliana with 6 samples.

Results

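Subtilisin-like proteases, or subtilases, were followed in Arabidopsis thaliana rosette leaves of the ka120 mutant and of the wild type. The family was taken as 54 subtilase loci given by their locus identifiers. A probe set assigned to that gene alone was found for 42 of them, among 13286 genes named in this way and 22746 probe sets tested. None of the 42 genes had more than 1 such probe set. Of the other 12 loci, AT3G46840, AT3G46850, AT4G10520, AT4G10530 and AT5G59110 shared a probe set with another gene and are given no value. SDD1, ALE1, AIR3, SLP3, XSP1, UNE17 and SLP2 are not analysed here, although several of them are among the best studied subtilases.

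The mutant is labelled only as ka120, with no allele named, and its reference is the wild type (WT) accession Col-0. Neither genotype was treated, and all plants grew on soil at 22 degrees C with 12 h of light and 12 h of darkness. Their age is given as 3 weeks in the study design, which speaks of whole rosettes, and as 4 weeks in the growth protocol, beside a label of mature leaf. Total RNA of 3 biological replicates per genotype was hybridized to 1 array each, and levels are given on the log2 scale, so that a difference of 1 stands for a 2-fold change. With 3 arrays per genotype, their number limits the precision of every value. Whether replicates came from separately grown plants is not stated, so the p-values measure the spread between these samples.

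Plant subtilases are serine proteases built around a catalytic triad of aspartate, histidine and serine. Most are made as inactive precursors, lose an inhibitory propeptide on their way through the secretory pathway and act in the cell wall space. They are known for cutting peptide hormone precursors and cell wall enzymes into their active forms, for setting stomatal density, for building the cuticle and for roles in immunity and senescence. Many Arabidopsis members lie side by side on the chromosomes as tandem copies.

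KA120 (AT3G08960), a nuclear transport receptor of the importin-beta family, read 3.65, 4.121 and 4.17 in ka120 against 4.55, 4.34 and 4.42 in WT, a difference of -0.45 (limma adjusted p = 0.0222). The group means were low, at percentiles 40.4 in ka120 and 47.4 in WT, and the call was lost when ka120 replicate 1 (-0.29, adjusted p = 0.0817) or WT replicate 1 (-0.40, 0.0603) was left out and under both control-based scalings described below (-0.23 and -0.02). The site of the mutation was not known here, so the values check the genotype only weakly. Array medians lay between 4.63 and 4.79. Leaf tissue was evident from photosynthesis genes: all 7 measured members of a list of 14 lay at or above percentile 88.2 of all probe sets in both genotypes, with RCA, the activase of Rubisco, at 13.04 ± 0.09 in ka120 and 13.13 ± 0.07 in WT (SD, n = 3). Of these 7, 6 were lower in ka120, beside 16.5% of all probe sets, and the list's median difference was -0.62. None of the 4 measured guard cell and stomatal lineage genes (FMA, SPCH, MUTE and AT1G22690) passed the test, with differences between -0.22 and -0.003. TRY, the only measured gene of a list of 6 epidermis and trichome markers, was lower in ka120 (-1.07, limma adjusted p = 4.2e-05). MUTE and the root genes EXPA7 and EXPA18 were dim in both genotypes. In RNA from whole leaves, fewer cells of a type and less RNA per cell cannot be told apart, and the part of cell composition in the differences below was not tested.

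Of the 42 measured subtilase genes, 10 were lower and 4 were higher in ka120 (limma, Benjamini-Hochberg adjusted p under 0.05 over all probe sets), and 28 did not pass. Over all 22746 probe sets 16.5% were lower and 19.4% were higher. The total of 14 calls, 33.3% of the family, was near the 35.9% of all probe sets called. Of the 42 genes, the genotypes did not overlap in 14, which were the called genes, beside 46.6% of all probe sets. Every ka120 array lay below every WT array in 10 of the 42 (22.8% of all probe sets) and above in 4 (23.8%). The calls rest on the same values, so this separation adds no support to them. Past a 2-fold difference there were 4 lower subtilases, AT5G59130, AT5G44530, AT4G30020 and AT3G14067, and 1 higher, SBT3.5, against 2.63% lower and 3.84% higher over all probe sets. The median difference of the family was -0.04, beside -0.02 over all probe sets. The balance of calls depended on the scaling of the arrays. Centring each array on its median gave 11 lower and 3 higher subtilases, beside 6235 and 3318 of all 22746 probe sets. Centring on the hybridization controls gave 8 and 6, beside 1955 and 7971. Subtracting the level-dependent shift of those controls gave 4 and 29, beside 1382 and 15475.

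**Figure D1:**
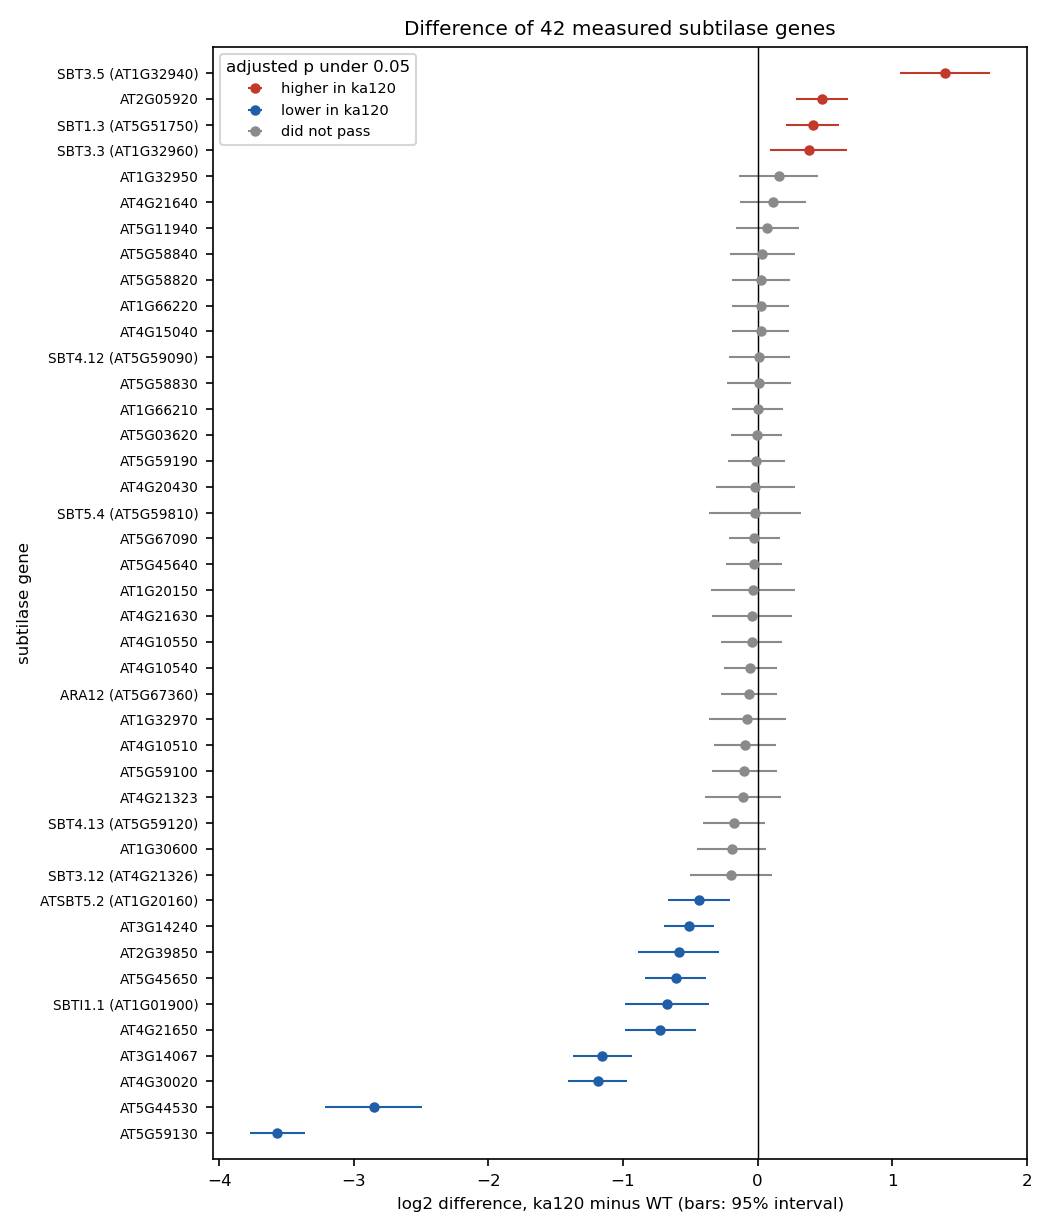
Log2 difference, ka120 minus WT, of each of the 42 measured subtilase genes, sorted from highest to lowest, with 95% intervals from the limma fit. Colour marks the 4 genes called higher, the 10 called lower and the 28 that did not pass. AT5G59130 at -3.57 and AT5G44530 at -2.85 stand far to the left, SBT3.5 at 1.39 to the right, and the 28 uncalled genes lie between -0.20 and 0.16.

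The largest fall was in AT5G59130, which had 3.35, 3.51 and 3.48 in ka120 and 6.93, 7.01 and 7.10 in WT. All WT arrays lay far above all ka120 arrays, and the arrays of a genotype stayed close to each other. The log2 difference was -3.57 (95% interval -3.77 to -3.36, limma adjusted p = 3.37e-09). The WT mean was at percentile 79.8 of all probe sets and the ka120 mean at percentile 30.7, a level not shown to exceed background, so no fold is given. AT5G44530 had 4.35, 4.07 and 4.35 in ka120 and 6.78, 7.06 and 7.49 in WT. The WT arrays of this gene were more spread out, but the groups again lay well apart. Its difference was -2.85 (95% interval -3.21 to -2.49, limma adjusted p = 3.64e-07), with means at percentiles 44.2 in ka120 and 80.9 in WT.

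Both genes stayed past the threshold in all 16 alternatives. AT5G59130 lay between -3.69 and -3.13 over them, those that left out 1 array included, and AT5G44530 between -3.02 and -2.41. They are annotated in the gene table only by their locus identifiers, and no substrate is named for them here.

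AT4G30020 had 6.95, 6.81 and 6.76 in ka120 and 7.90, 8.08 and 8.11 in WT. Its groups were separated by more than the spread within either, at a difference of -1.19 (SE 0.10, limma adjusted p = 4.84e-06), a level 2.28-fold lower in ka120. AT3G14067, known from Arabidopsis work as a senescence-associated subtilase, had 6.06, 6.20 and 6.08 in ka120 and 7.38, 7.30 and 7.11 in WT. The groups did not overlap, and the difference of -1.15 (SE 0.10, limma adjusted p = 6.67e-06) is a level 2.22-fold lower in ka120. SAG29, the only measured gene of a list of 6 senescence markers, was also lower in ka120, at 4.67 ± 0.19 against 5.38 ± 0.35 in WT (SD, n = 3, difference -0.71). The part of leaf age in these values was not tested. The differences of AT4G30020 and AT3G14067 stayed past the threshold in all 16 alternatives, between -1.31 and -0.75 and between -1.28 and -0.71.

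Of the 6 smaller falls, 3 are given first. SBTI1.1 (AT1G01900), which cleaves the precursor of the growth peptide phytosulfokine, had 4.53, 3.94 and 4.44 in ka120 and 5.01, 5.001 and 4.92 in WT. The ka120 array of replicate 2 was the lowest, and all 3 lay below WT, with a difference of -0.67 (SE 0.14, limma adjusted p = 0.00303). The means of SBTI1.1 lay at percentiles 44.6 in ka120 and 54.1 in WT. ATSBT5.2 (AT1G20160), which activates the stomatal peptide EPF2 under high carbon dioxide, had 4.07, 3.77 and 3.97 in ka120 and 4.48, 4.31 and 4.34 in WT. Its groups lay side by side without overlap, with a difference of -0.44 (SE 0.10, limma adjusted p = 0.00662). The means of ATSBT5.2 lay at percentiles 39.8 in ka120 and 46.6 in WT, the ka120 level not shown to exceed background. AT4G21650 had 3.11, 2.89 and 2.99 in ka120 and 3.63, 3.56 and 3.97 in WT, a difference of -0.72 (SE 0.12, limma adjusted p = 0.000678). This gene was dim in both genotypes, at percentiles 15.9 in ka120 and 36.5 in WT.

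The other 3 lower genes have no symbol in the gene table. AT5G45650 averaged 7.34 ± 0.08 in ka120 and 7.94 ± 0.15 in WT (SD, n = 3), a difference of -0.61. AT2G39850 averaged 5.60 ± 0.22 in ka120 and 6.19 ± 0.21 in WT, a difference of -0.59, and AT3G14240 averaged 7.47 ± 0.03 in ka120 and 7.97 ± 0.04 in WT, a difference of -0.51. Adjusted p-values of these 3 lay between 0.000705 and 0.00582 (limma). These 3 genes, SBTI1.1, ATSBT5.2 and AT4G21650 lost their calls once the level-dependent control offset was removed, with adjusted p of at least 0.0579. ATSBT5.2 and AT3G14240 also lost theirs after centring on the hybridization controls, at -0.21 and -0.28 (adjusted p = 0.172 and 0.057). Of those controls, the dimmest, BioB, differed by -0.44 between ka120 and WT and the brightest, Cre, by 0.02, beside differences of -0.72 to -0.44 in these 6 genes; the part of this shift in them was not tested.

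**Figure D2:**
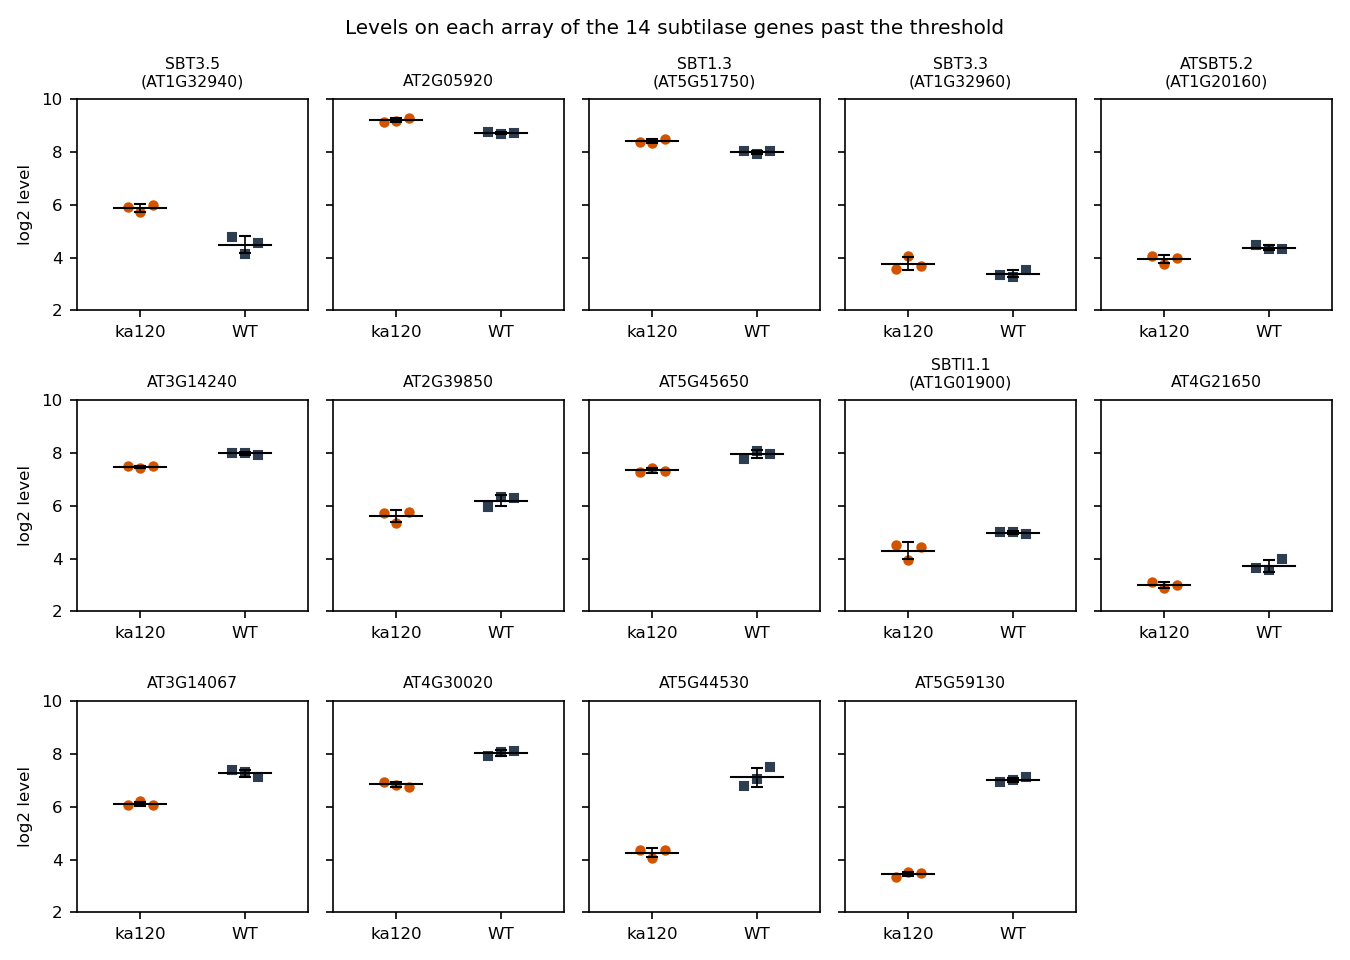
Log2 level on each array for the 14 subtilase genes past the threshold, with ka120 (orange circles) left of WT (dark squares). The lines are means and the error bars are SD over 3 arrays. In every panel the genotypes are apart, by a wide gap in AT5G59130 and AT5G44530 and by a narrow one in SBT3.3, whose ka120 mean was 3.76 and WT mean 3.38.

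SBT3.5 (AT1G32940), which processes a pectin methylesterase in roots, was the subtilase with the largest rise. It had 5.93, 5.72 and 6.005 in ka120 and 4.78, 4.14 and 4.55 in WT. The lowest ka120 array lay above the highest WT array by more than the spread within ka120. The difference was 1.39 (95% interval 1.06 to 1.73, limma adjusted p = 3.71e-05), a level 2.63-fold higher in ka120, with the WT mean at percentile 48.1. It stayed past the threshold in all 16 alternatives, between 1.22 and 1.83.

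SBT3.3 (AT1G32960), a subtilase known for its part in priming immune responses, had 3.57, 4.05 and 3.68 in ka120 and 3.34, 3.28 and 3.53 in WT. The groups were separated only narrowly, and the ka120 array of replicate 2 was the highest of all. Its difference was 0.38 (SE 0.13, limma adjusted p = 0.0421), at percentiles 36.9 in ka120 and 28.4 in WT, levels not shown to exceed background. The call was lost without ka120 replicate 2 (0.24, adjusted p = 0.147), without ka120 replicate 3 (0.42, 0.065), without WT replicate 1 (0.36, 0.0853), without WT replicate 2 (0.33, 0.134), with array weights (0.33, 0.06) and after median centring (0.26, 0.132).

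The remaining rises were small and came from bright probe sets. AT2G05920 had 9.14, 9.16 and 9.28 in ka120 and 8.77, 8.68 and 8.69 in WT, a difference of 0.48 (SE 0.09, limma adjusted p = 0.0013). SBT1.3 (AT5G51750) had 8.39, 8.32 and 8.49 in ka120 and 8.02, 7.93 and 8.01 in WT, a difference of 0.41 (SE 0.09, limma adjusted p = 0.00389). In both genes the lowest ka120 array lay above the highest WT array. Both stayed past the threshold in all 16 alternatives, at differences of at least 0.36 and 0.29.

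Among the 28 genes that did not pass, 3 lay above the dimmest 40% of probe sets. ARA12 (AT5G67360), which is needed for the release of seed coat mucilage, had 7.55, 7.58 and 7.65 in ka120 and 7.72, 7.74 and 7.52 in WT. The groups overlapped, and the interval of its difference, -0.27 to 0.15, lay far from the differences of SBT3.5 (1.39) and AT4G30020 (-1.19) on the deposited scale. AT4G20430 averaged 5.25 ± 0.12 in ka120 and 5.27 ± 0.27 in WT, and AT4G10550 averaged 4.50 ± 0.05 in ka120 and 4.54 ± 0.16 in WT (SD, n = 3).

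The other 25 uncalled genes were dim, between 2.45 and 4.34 on any array, levels not shown to exceed background. For genes this dim, a missing call does not show that the transcript was equal in both genotypes. SBT4.12 (AT5G59090) and SBT4.13 (AT5G59120), which process the abscission peptide IDA, belong here. SBT4.12 had 3.09, 2.87 and 3.004 in ka120 and 3.11, 2.86 and 2.95 in WT. SBT4.13 had 3.44, 3.23 and 3.55 in ka120 and 3.68, 3.501 and 3.57 in WT. Both pairs of groups overlapped, with differences of 0.01 and -0.17.

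SBT5.4 (AT5G59810) had 3.05, 3.56 and 3.03 in ka120 and 3.46, 3.04 and 3.21 in WT. AT4G10540 had 2.71, 2.66 and 2.75 in ka120 and 2.77, 2.67 and 2.85 in WT. Neither gene separated the genotypes. The others were SBT3.12, AT1G20150, AT1G30600, AT1G32950, AT1G32970, AT1G66210, AT1G66220, AT4G10510, AT4G15040, AT4G21323, AT4G21630, AT4G21640, AT5G03620, AT5G11940, AT5G45640, AT5G58820, AT5G58830, AT5G58840, AT5G59100, AT5G59190 and AT5G67090. Differences of the 28 uncalled genes lay between -0.20 (SBT3.12) and 0.16 (AT1G32950), and their 95% intervals between -0.50 and 0.45.

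By the gene order of the TAIR10.1 assembly, 30 of the 54 loci fell into 10 groups of neighbours, with at most 2 other protein-coding genes between members. Single-gene probe sets covered 25 of them, of which 4 were lower and 2 higher in ka120 and 20 were dim. Of the 17 measured genes that stood alone, 6 were lower and 2 higher and 7 were dim. The median WT level was 3.29 for the genes in groups and 5.27 for those alone, and 35.9% of all probe sets were called; a difference between these counts was not tested. More than 1 neighbour was called in 1 of the 10 groups, while the group of AT3G46840 and AT3G46850 had no measured member and could hold no call. In the group from SBT4.12 to AT5G59130, the large fall of AT5G59130 stood beside SBT4.12, AT5G59100 and SBT4.13 at 0.01, -0.10 and -0.17. In the group from SBT3.5 to AT1G32970, SBT3.5 and SBT3.3 were called higher, while AT1G32950 (0.16) and AT1G32970 (-0.08) did not pass. The 6 neighbours named in these 2 groups were dim, so a change in those that did not pass may not have been detectable. Cross-hybridization between such close copies was not tested.

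**Figure D3:**
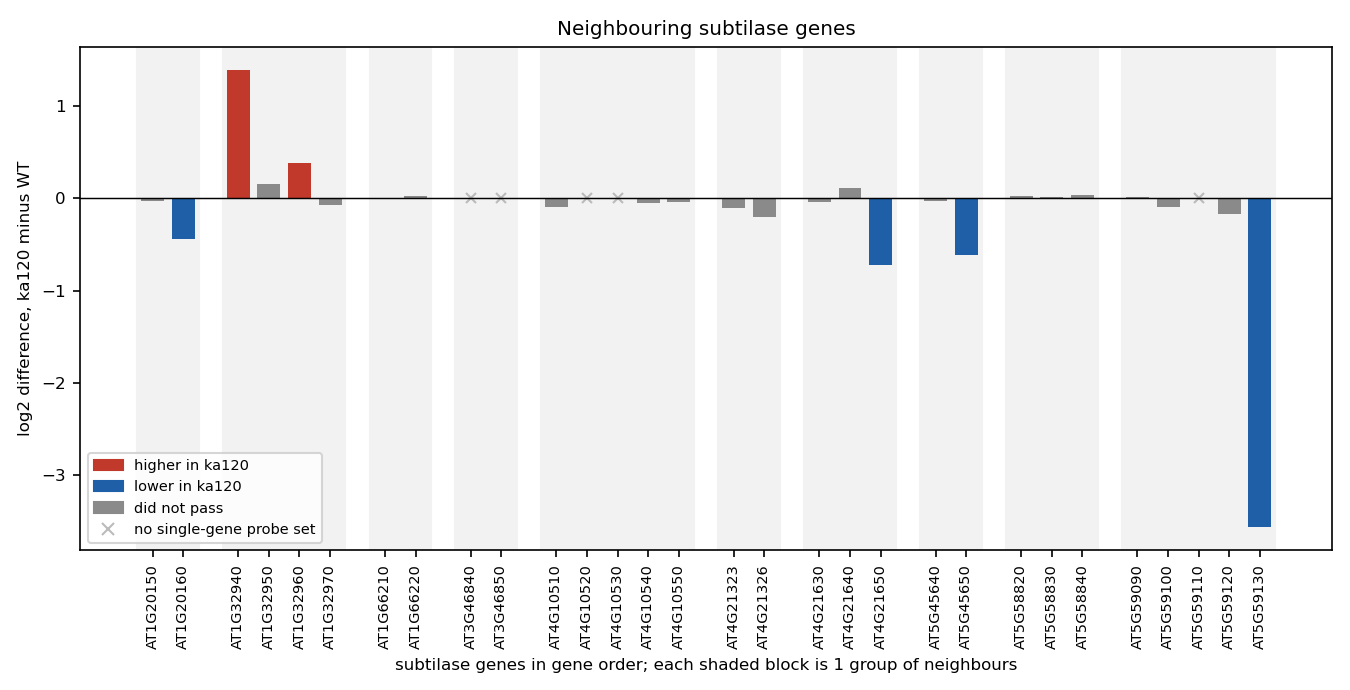
Log2 difference, ka120 minus WT, of the subtilase loci that lie in groups of neighbours, in gene order, with 1 shaded block per group. Colour marks the call, and a cross marks a locus with no single-gene probe set. The bar of AT5G59130 at -3.57 stands beside neighbours between -0.17 and 0.01, and SBT3.5 at 1.39 beside neighbours between -0.08 and 0.38.

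Genes around the largest fall and the largest rise were also compared. The measured genes outside the 54 loci that lay closest to AT5G59130 were AT5G59060, AT5G59080 and AT5G59070 on 1 side. On the other side they were AT5G59140, AT5G59170 and NRPB7. The differences of all these genes lay between -0.36 (AT5G59080) and 0.42 (AT5G59140), so none changed by an amount near that of AT5G59130. Around SBT3.5, AT1G33030 was higher in ka120 by 1.29 and AT1G32810 by 0.51, while AT1G32860 was lower (-0.34). AT1G32880, AT1G32980 and AT1G33050 did not pass. Counted in protein-coding genes from SBT3.5, AT1G33030 lay at 9 and AT1G32810 at -10. The closest outside the 54 loci, AT1G32980, lay at 5 and differed by -0.06. Whether any of these flanking genes is itself a subtilase missing from the list was not checked.

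**Figure D4:**
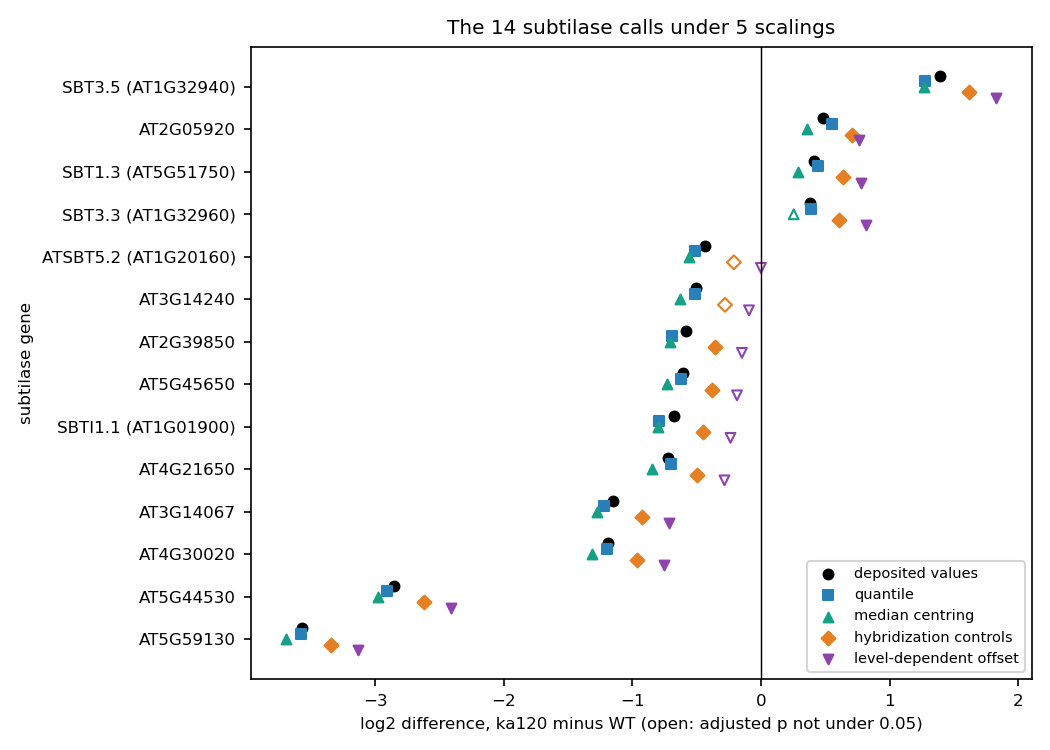
Log2 difference, ka120 minus WT, of the 14 called subtilase genes with the deposited values and under 4 other scalings of the arrays. Filled symbols are past an adjusted p of 0.05 and open symbols are not. AT5G59130, AT5G44530, AT4G30020 and AT3G14067 stay lower and SBT3.5, AT2G05920 and SBT1.3 stay higher under all 5, while the symbols of the 6 smaller falls open as the control-based scalings move them towards 0.

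Genes that work with subtilases were read from a list of 33, of which 11 were measured, 5 higher and 3 lower in ka120. Over all probe sets, 19.4% were higher and 16.5% lower, and a difference from these shares was not tested. BZIP17, a membrane-bound transcription factor released by the Golgi subtilase S1P, was 7.47 ± 0.01 in ka120 and 6.30 ± 0.12 in WT, a difference of 1.17. The pectin methylesterase ATPMEPCRB, of a class whose members carry a propeptide, was 4.77 ± 0.38 in ka120 and 3.45 ± 0.25 in WT, a difference of 1.32. AT5G01075, which encodes the precursor of the cuticle peptide TWS1 that ALE1 cuts, was 3.61 ± 0.08 in ka120 and 4.76 ± 0.19 in WT, a difference of -1.15. GSO1, the receptor of TWS1, was 3.59 ± 0.09 in ka120 and 4.298 ± 0.18 in WT, a difference of -0.71 (SD, n = 3 for each; limma adjusted p between 3.79e-06 and 0.000438). AT5G01075 and GSO1 in ka120, at percentiles 34.2 and 33.8, and ATPMEPCRB in WT, at 30.4, had levels not shown to exceed background. S1P itself and TPP2, subtilases of other branches that are not among the 54 loci, gave 0.07 and 0.22 and did not pass.

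Other protease families were read for comparison, by counts and medians. Of 24 listed papain-like cysteine proteases 11 were measured, 4 of them higher and 2 lower, with a median of 0.004. The 4 higher ones were AT4G01610 (1.63), AT1G02300 (1.41), AT4G16190 (1.32) and AT2G21430 (0.94). The 2 lower ones were AT3G43960 (-0.64) and AT1G02305 (-0.39). Types within this family were not compared. Of 4 vacuolar processing enzymes, cysteine proteases that activate other vacuolar proteins, GAMMA-VPE was higher by 1.26 and BETA-VPE fell by 1.79, and none of the 9 listed metacaspases was measured.

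Of 39 listed serine carboxypeptidases 24 were measured, 4 higher and 7 lower, with a median of -0.11. Their largest differences were 1.30 for scpl46, 1.22 for SCPL49, -1.01 for scpl26 and -0.88 for SCPL27. Of 10 measured aspartic proteases 2 were higher and 2 lower, the lower ones AT1G01300 (-0.81) and AT1G62290 (-0.60). Of 5 matrix metalloproteinases AT1G24140 was higher by 0.77 and the others did not pass. Over these lists and that of the subtilase partners, 32 of 65 measured genes were called, 17 higher and 15 lower, beside 14 of 42 subtilases and 35.9% of all probe sets; no difference between lists was tested.

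**Figure D5:**
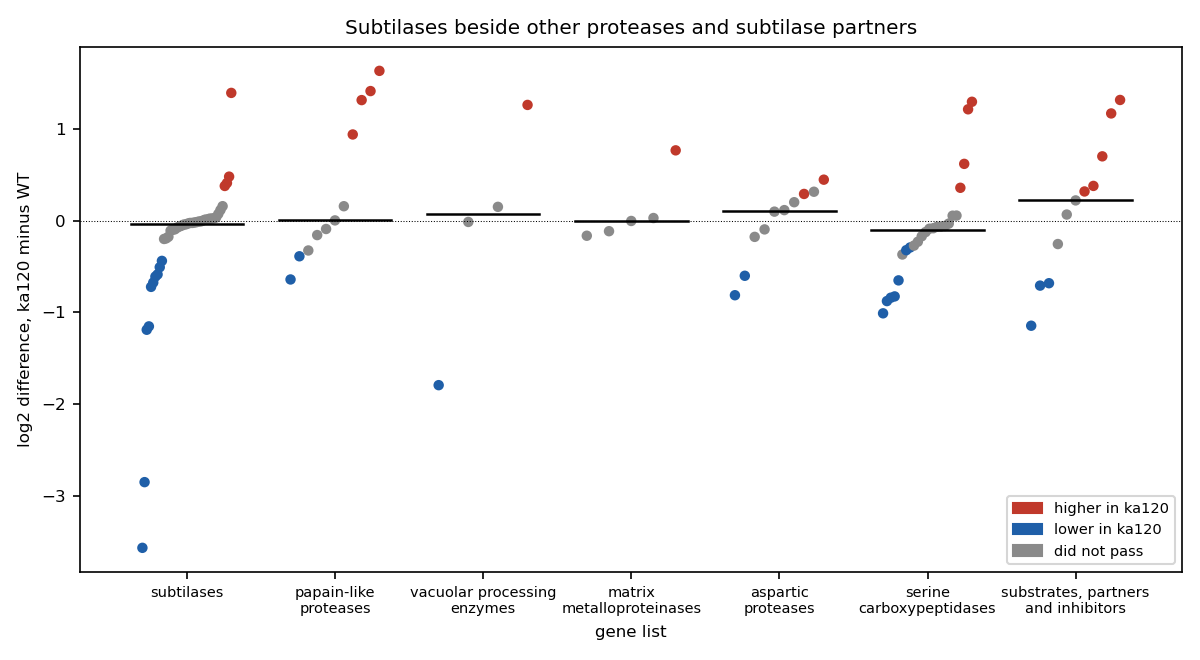
Log2 difference, ka120 minus WT, of each measured gene in 7 lists, with 1 point per gene coloured by its call and a line at each list's median. The subtilases hold the lowest points of all lists, AT5G59130 at -3.57 and AT5G44530 at -2.85, and the papain-like proteases the highest, AT4G01610 at 1.63.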

How the data were processed

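The authors deposited 1 log2 level per probe set and array, made with the affy package per the submitters' processing notes. The sources used here do not give its version, the background correction or the normalization. Genotypes were taken from the sample titles. Of the probe sets, 64 array controls were left out and 22746 were tested. The platform annotation, matched by gene identifier to the TAIR10.1 gene table, named a single gene for 13513 (13436 matched), several genes for 503 and none for 8730. A gene was represented by its brightest single-gene probe set.

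Genotypes were compared by linear models with moderated variances (limma 3.58.1 under R 4.3.3), without a block or a level filter, with Benjamini-Hochberg adjustment over all tested probe sets and a threshold of 0.05. The fit was tested on simulated data. Detection calls were not used here, so "dim" means the lowest 40% by mean over 6 arrays. Alternatives were quantile normalization, median centring, 2 scalings on the hybridization controls, removal of dim or of shared probe sets, a replicate block, array weights, a robust prior that follows intensity, averaged probe sets per gene, and each array left out.

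The subtilase loci, the companion lists and the naming rule were chosen with earlier results of these data known. The rule gave values on every array for up to 6 called genes in each direction and for 10 measured characterised subtilases. It also named companion genes past a difference of 0.5, up to 4 per list. SAG29, TRY, RCA, S1P, TPP2, the guard cell genes and the neighbours of AT5G59130 and SBT3.5 were named in addition, after their values had been seen. AT3G43960 and AT1G02305 were added in the same way. Planned descriptions of protein and promoter sequences were not made, and no sequence is used here. Deviations of same-numbered arrays from their group means correlated at -0.01, -0.19 and 0.13, so the numbers were not taken to pair the samples.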

Additional observations from a re-analysis of the deposited data

How the results depend on the processing

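Counts of subtilase calls stayed within 1.5 times of 10 lower and 4 higher in 15 of 16 alternatives. With each array left out in turn, 10 were lower every time and between 3 and 4 were higher, the gene lost being SBT3.3. With a replicate block the counts were again 10 and 4, and the block changed no call of a subtilase; the numbers do not pair the samples. The level-dependent control offset gave 29 higher and 4 lower subtilases, and 40 higher and 8 lower companion genes against 17 and 15. Of all 22746 probe sets, this offset called 15475 higher and 1382 lower. It subtracts the negative shift of the dimmest hybridization control, BioB, from all probe sets below that control's level, whether dim or not. The median difference of all probe sets was -0.02 as deposited, -0.15 with median centring and 0.21 with centring on the hybridization controls. The level-dependent offset moved this median to 0.41. Under it 15 uncalled subtilases with small negative differences were called higher: AT5G03620 (0.43), AT5G59190 (0.43), AT4G20430 (0.42), SBT5.4 (0.42), AT5G67090 (0.41), AT5G45640 (0.41), AT1G20150 (0.41), AT4G21630 (0.40), AT4G10550 (0.40), AT4G10540 (0.38), ARA12 (0.36), AT1G32970 (0.36), AT4G10510 (0.34), AT5G59100 (0.34) and AT4G21323 (0.33). Any noise of the controls is shared by all probe sets, so adjusted p-values under control-based scalings may be too small, which was not tested. Leaving out the dimmest 40% of probe sets kept 15 subtilases, 9 lower and 3 higher. Of all 13647 probe sets kept, 3505 were lower and 4091 higher, and a difference between these shares was not tested. Single-array values are limited by 3 arrays per genotype and by the dimness of 27 of the 42 genes.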
